A study of Mus musculus with 5 samples.

Results

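The 10 genes described here encode enzymes that make, recycle and use glutathione, together with antioxidant enzymes that work beside them: Gclc, Gclm, Gss, Gsr, Gpx1, Gpx4, Prdx6, Nqo1, Txnrd1 and Cat. They were taken by symbol from a table of 22183 mouse genes, and all 10 were found and passed the filter on low counts. Poly(A) RNA was measured in 5 libraries from whole lenses of 14-day-old (P14) mice. Of these, 2 belonged to the cKO group, a conditional knockout of Yap1, and 3 to the controls (Ctrl). Each library was a pool of 4 to 6 lenses, and the pools are the replicates in every test. Lenses of the cKO pools were chosen for microphthalmia with closure of the pupillary membrane, and the donor mice were Cre-positive with 1 floxed Yap1 allele (Yap1f/+;Cre) or both floxed (Yap1f/f;Cre). The controls were unaffected littermates carrying Yap1f/f or Yap1f/+, although a separate field labels them WT. Both groups thus carried floxed alleles, and which promoter drives Cre is not stated in the labels.

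Glutathione is a tripeptide of glutamate, cysteine and glycine, and the lens is known for holding it at high concentration, where it keeps crystallin thiols reduced and removes peroxides. Glutamate-cysteine ligase, a catalytic subunit (Gclc) with a modifier subunit (Gclm), makes the first and rate-limiting bond, and glutathione synthetase (Gss) adds glycine. Peroxidases oxidise glutathione, and glutathione reductase (Gsr) restores it with NADPH. Several of these genes are known targets of the transcription factor NRF2 (gene Nfe2l2), which binds antioxidant response elements and is held back by KEAP1.

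To show where the letters of such an element occur near these genes, RefSeq promoter windows (build GRCm38.p6, 250 bases before to 50 after a start site) were searched on both strands for the core TGACNNNGC. Windows were found for 7 of the 10 genes, 12 windows in all, and 2 of them held a match, 1 of Gclm and 1 of 3 for Txnrd1. Of all 32851 windows of that length, 12.4% held the core. Both matches were on the strand opposite to the gene, beginning 134 bases before the Gclm start and 92 bases before that Txnrd1 start, and neither overlapped the AP-1 letters TGANTCA. The pair is printed because Gclm was higher in cKO and Txnrd1 was measured lower (values below), with capitals marking the match, from chr3:122245307-122245606 (plus strand) and chr10:82858956-82859255 (plus strand).
Gclm: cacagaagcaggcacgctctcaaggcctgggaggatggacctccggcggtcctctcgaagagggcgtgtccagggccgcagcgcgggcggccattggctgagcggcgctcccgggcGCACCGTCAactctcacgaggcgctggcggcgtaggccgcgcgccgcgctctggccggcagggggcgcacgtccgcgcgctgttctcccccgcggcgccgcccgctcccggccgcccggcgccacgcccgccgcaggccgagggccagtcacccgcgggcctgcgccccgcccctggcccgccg
Txnrd1: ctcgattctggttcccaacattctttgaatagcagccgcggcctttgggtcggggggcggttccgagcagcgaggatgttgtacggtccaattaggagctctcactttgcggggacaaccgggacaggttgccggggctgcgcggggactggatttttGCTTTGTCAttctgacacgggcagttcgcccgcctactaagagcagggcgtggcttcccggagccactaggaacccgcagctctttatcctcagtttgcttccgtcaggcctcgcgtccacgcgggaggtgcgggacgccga
A match describes these letters and was not tested as a binding site.

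The libraries held 22047580 to 25762802 estimated counts. Of 11724 genes tested, 675 (5.76%) were higher and 906 (7.73%) lower in cKO by edgeR's quasi-likelihood test at a Benjamini-Hochberg adjusted p under 0.05, which is the meaning of "rose" and "fell" here. With libraries scaled by total counts in place of TMM, 1234 (10.5%) were higher and 717 (6.12%) lower, and the median log2 fold change of all genes shifted by 0.21. Yap1 itself had 133 to 155 counts in the controls, 92 in cKO 1 and 61 in cKO 2, a log2 fold change of −1.08 (SE 0.33) that did not pass (adjusted p = 0.0759 by edgeR). The 9 lens fibre markers were abundant in all pools, with 2 called lower in cKO. Of the 5 corneal epithelium markers, Krt5, Krt12, Krt14 and Trp63 were at 0 in all pools, while Aldh3a1 was called lower, at 0 in both cKO pools and at 8.81, 5.66 and 2.69 CPM in Ctrl 1, 2 and 3 (CPM here and below are counts scaled to library size by TMM). The 10 macrophage markers summed to 85.3 and 27.6 CPM in cKO 1 and 2 and to 1.42 to 3.2 CPM in Ctrl, with 6 of the 7 tested ones called higher. Apart from Cryaa, the 7 lens epithelium markers summed to 115 and 174 CPM in cKO and 275 to 325 CPM in Ctrl, with 4 called lower. With Cryaa the sums were 151380 and 167911 CPM in cKO and 130554 to 156050 CPM in Ctrl, overlapping. Y-linked transcripts (Ddx3y, Eif2s3y, Kdm5d and Uty) summed to 0.0817 and 0 CPM in cKO and to 65.7 to 78.1 CPM in Ctrl, so sex and genotype cannot be told apart. The part of these differences in the results below was not tested, and in pooled tissue fewer cells of a type and less RNA per cell cannot be told apart.

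Of the 10 genes, Gclm and Gpx4 rose, by 1.53-fold and 1.65-fold, and Cat fell by 2.13-fold. The other 7 did not pass. That is 2 of 10 called higher, where 5.76% of all tested genes were, and 1 of 10 called lower, where 7.73% were. Before any test, the CPM values of the groups did not overlap for 9 of the 10, with cKO above Ctrl in 6 (Gclm, Gss, Gsr, Gpx1, Gpx4 and Nqo1) and below it in 3 (Prdx6, Txnrd1 and Cat). Over all tested genes 51.5% did not overlap, 22.8% with cKO above and 28.7% with cKO below. The median log2 fold change of the 10 was 0.39, against −0.06 over all tested genes. Every one of the 10 kept its sign under all 13 alternative settings. With Ctrl 1, 2 or 3 taken out, 0 of the 10 were called by edgeR (4 higher and 1 or 2 lower at an unadjusted p under 0.05), and adjusted p ranged from 0.155 to 0.177 for Gclm, 0.0969 to 0.144 for Gpx4 and 0.0934 to 0.101 for Cat. Over all genes these fits had 1347, 1112 and 1324 higher and 1263, 1333 and 1313 lower at an unadjusted p under 0.05.

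**Figure D1:**
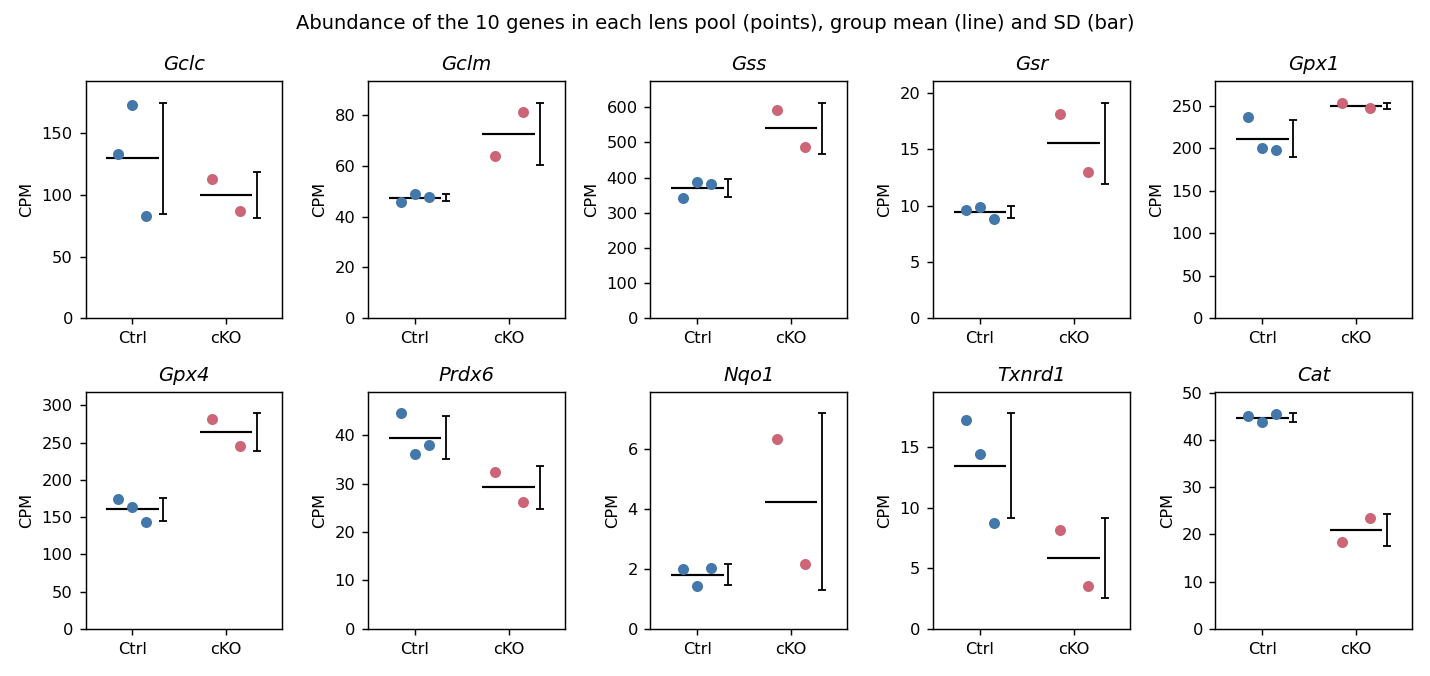
Abundance in CPM of each of the 10 genes (panels, each on its own axis from 0) in the 3 Ctrl and 2 cKO pools; points are pools, lines are group means and bars are SD. Gclm, Gpx4 and Cat show groups well apart, Gclc overlaps, and in Nqo1 cKO 1 (6.33 CPM) stands far above cKO 2 (2.16 CPM).

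Glutathione synthesis was led by Gss, whose product joins glycine to the dipeptide. Gss (ENSMUSG00000027610) was measured at 341, 387 and 383 CPM in Ctrl 1, 2 and 3, against 592 CPM in cKO 1 and 488 CPM in cKO 2. Both cKO pools lay above every control. Its mean was 540 ± 73.8 CPM (SD, n = 2) in cKO and 371 ± 25.5 CPM (n = 3) in Ctrl, and its log2 fold change of 0.54 (SE 0.15) did not pass (adjusted p = 0.0636 by edgeR). It was called higher under 5 of the 13 alternatives, among them DESeq2 (adjusted p = 0.00602) and total-count scaling.

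Gclm (ENSMUSG00000028124), whose product raises the efficiency of the catalytic subunit, stood at 45.9, 48.9 and 47.5 CPM in Ctrl 1, 2 and 3, against 63.8 CPM in cKO 1 and 81.2 CPM in cKO 2. The controls were close together, and cKO 2 was the highest pool. Its log2 fold change was 0.61 (SE 0.15, adjusted p = 0.0487 by edgeR), from 47.4 ± 1.49 to 72.5 ± 12.3 CPM. This call lay just inside the threshold and was also lost without the count filter (adjusted p = 0.0561 by edgeR) and with the crystallin genes left out before scaling (adjusted p = 0.0555 by edgeR).

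Gclc (ENSMUSG00000032350), the catalytic subunit, was measured at 133, 173 and 83 CPM in Ctrl 1, 2 and 3, against 113 CPM in cKO 1 and 86.5 CPM in cKO 2. The controls spanned both cKO pools, with Ctrl 2 highest and Ctrl 3 lowest of all 5. Its change was −0.38 on the log2 scale (SE 0.32, adjusted p = 0.46 by edgeR) and none of the 13 alternatives called it.

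The balance of the ligase subunits was compared on the FPKM scale, which is per length. Gclc per Gclm was 1.52, 2.15 and 0.983 in Ctrl 1, 2 and 3, 0.726 in cKO 1 and 0.509 in cKO 2. On this scale the modifier had the higher level in both cKO pools and, by a small margin, in Ctrl 3. The log2 ratio was −0.72 ± 0.36 (n = 2) in cKO and 0.56 ± 0.56 (n = 3) in Ctrl. The difference was −1.28, with p = 0.2 by an exact two-sided permutation test that cannot go below 0.1 with 10 splits, so it could not reach 0.05 in this design. In CPM, which is not per length, Gclc per Gclm was 2.9, 3.54 and 1.75 in Ctrl 1, 2 and 3. It was 1.78 in cKO 1 and 1.07 in cKO 2, so Gclc was the higher in every pool. From CPM the log2 difference was −0.93 (exact permutation p = 0.3), and cKO 1 overlapped Ctrl 3.

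For this ratio the distance between the scales lay in the length that the deposited columns imply for Gclm. Library scaling cancels within each pool. The count divided by the FPKM and the library total gives the length, in bases, that the authors' FPKM used. For Gclc, Gsr, Nqo1 and Cat this was 3423, 2673, 1553 and 2613 bases in cKO 1, the length of the longest coding transcript of each gene in GENCODE M21, and differed by less than 0.1% between pools. For Gclm, which has 5 coding transcripts of 292 to 5589 bases there, it was 1796, 2072 and 1925 bases in Ctrl 1, 2 and 3, 1398 bases in cKO 1 and 1636 bases in cKO 2. The cKO mean was 21.4% shorter (1517 against 1931 bases), with no overlap. Among 6223 tested genes with an FPKM of at least 1 in every pool, 4.08% were at least 10% shorter in cKO with no overlap. Gclm was the only 1 of the 10 to meet this, and the transcripts behind it were not analysed here. In FPKM, which was not scaled by TMM, Gclm went from 23.2 ± 1.56 to 52.3 ± 9.07. Log2 FPKM with 1 added gave a change of 1.13 (adjusted p = 0.00783 by limma). The counts gave 0.61 with TMM and 0.84 with total-count scaling, so both implied length and library scaling differ between these settings. Over all tested genes, log2 FPKM with 1 added shifted the change by a median of 0.19.

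**Figure D2:**
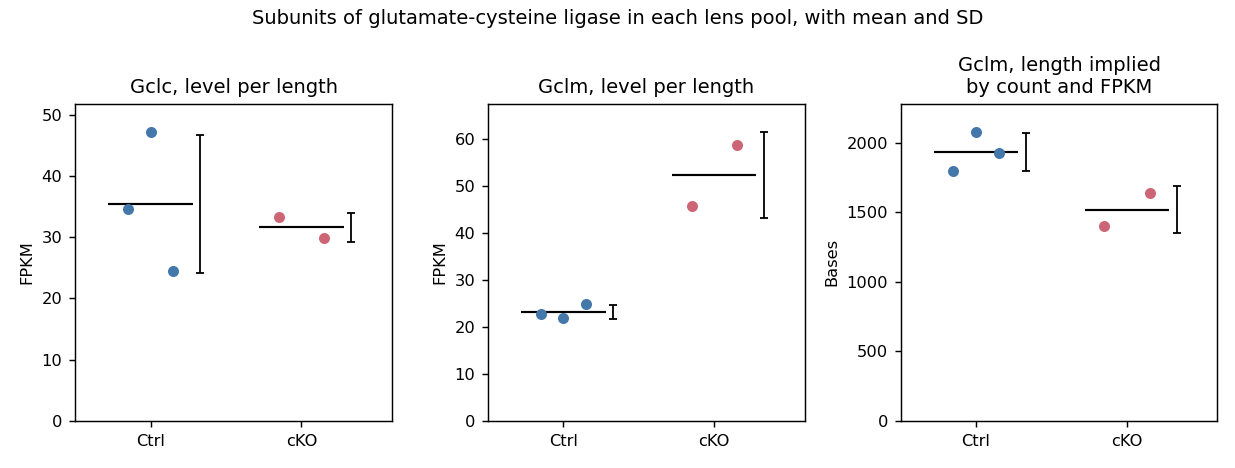
FPKM of Gclc and Gclm and the length in bases implied for Gclm in each pool (points), with group mean (line) and SD (bar), for 3 Ctrl and 2 cKO pools. Gclc overlaps between the groups, whereas Gclm is higher and its implied length shorter in both cKO pools.

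Recycling was represented by Gsr (ENSMUSG00000031584), which reduces oxidised glutathione. It was measured at 9.6, 9.91 and 8.83 CPM in Ctrl 1, 2 and 3, against 18.1 CPM in cKO 1 and 13 CPM in cKO 2. Both cKO pools were above all controls, cKO 1 most. The log2 fold change of 0.72 (SE 0.21) equalled that of Gpx4 (SE 0.15) but did not pass (adjusted p = 0.0692 by edgeR). DESeq2 called Gsr higher (adjusted p = 0.0414).

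Of the peroxide-removing enzymes, Gpx4 (ENSMUSG00000075706), a selenoenzyme that reduces lipid hydroperoxides in membranes and restrains ferroptosis, stood at 174, 163 and 144 CPM in Ctrl 1, 2 and 3, against 282 CPM in cKO 1 and 246 CPM in cKO 2. All cKO values exceeded all control values. Gpx4 rose by 0.72 on the log2 scale (SE 0.15, adjusted p = 0.0314 by edgeR), from 160 ± 15 to 264 ± 25.7 CPM.

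Gpx1 (ENSMUSG00000063856), the selenoenzyme that reduces hydrogen peroxide in the cytosol, had 237, 200 and 198 CPM in Ctrl 1, 2 and 3, 253 CPM in cKO 1 and 248 CPM in cKO 2. The groups were narrowly apart, with Ctrl 1 close to cKO 2. Its log2 fold change of 0.24 (SE 0.14) did not pass (adjusted p = 0.301 by edgeR); log2 FPKM with 1 added and limma gave 0.48 and an adjusted p of 0.0476.

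Cat (ENSMUSG00000027187), the peroxisomal catalase that breaks down hydrogen peroxide without glutathione, was at 45.1, 43.7 and 45.4 CPM in Ctrl 1, 2 and 3, against 18.5 CPM in cKO 1 and 23.4 CPM in cKO 2. The controls were nearly equal and both cKO pools were far below them. Its log2 fold change was −1.09 (SE 0.16, adjusted p = 0.0149 by edgeR), from 44.8 ± 0.887 to 21 ± 3.43 CPM.

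Prdx6 (ENSMUSG00000026701), a peroxiredoxin that uses glutathione and also acts on phospholipids, was at 44.5, 36.1 and 37.9 CPM in Ctrl 1, 2 and 3, against 32.3 CPM in cKO 1 and 26.1 CPM in cKO 2. In CPM cKO lay below Ctrl, but in FPKM the groups overlapped. The log2 fold change was −0.44 (SE 0.17, adjusted p = 0.142 by edgeR).

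The remaining pair were low. Nqo1 (ENSMUSG00000003849), a quinone reductase widely used as an NRF2 target, had 43, 29 and 53 counts in Ctrl 1, 2 and 3, 155 in cKO 1 and 58 in cKO 2, or 1.99, 1.42, 2.03, 6.33 and 2.16 CPM. Only cKO 1 stood apart, since cKO 2 was barely above Ctrl 3. The log2 fold change of 1.22 (SE 0.52, adjusted p = 0.163 by edgeR) was 0.23 without cKO 1 and 1.80 without cKO 2, fits that each left 1 cKO pool.

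Txnrd1 (ENSMUSG00000020250), the cytosolic thioredoxin reductase and also a selenoenzyme, was measured lower, with 17.2, 14.4 and 8.72 CPM in Ctrl 1, 2 and 3, against 8.17 CPM in cKO 1 and 3.54 CPM in cKO 2. Here cKO 2 was the lowest pool and cKO 1 was close to Ctrl 3. The log2 fold change of −1.20 (SE 0.45) did not pass (adjusted p = 0.125 by edgeR). It was −0.71 without cKO 2 and −1.93 without cKO 1, fits that each left 1 cKO pool. The 3 selenoenzymes among the 10 had positive changes in Gpx1 and Gpx4 and a negative one in Txnrd1, of which that of Gpx4 passed.

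**Figure D3:**
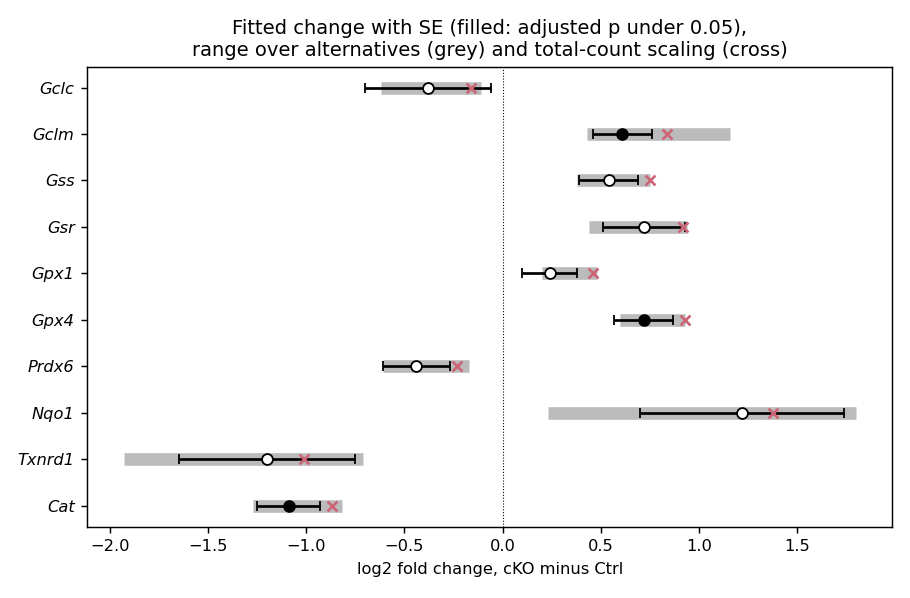
Log2 fold change of each gene, cKO minus Ctrl, with SE (filled circles passed at an adjusted p under 0.05); grey bars span the 13 alternatives and crosses show total-count scaling. No grey bar crosses 0, and those of Nqo1 (0.23 to 1.80) and Txnrd1 (−1.93 to −0.71) are the longest.

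Per length, 3 genes held most of the summed level. In Ctrl the order by mean FPKM was Gpx1 (194), Gss (190), Gpx4 (173), Gclc (35.4), Prdx6 (26.6), Gclm (23.2), Cat (16.2), Txnrd1 (4.17), Gsr (3.33) and Nqo1 (1.11). Neighbours overlapped in their libraries from Gpx1 to Gss to Gpx4, from Gclc to Prdx6 to Gclm, and from Txnrd1 to Gsr. In cKO Gpx4 (326) and Gss (318) came first and overlapped, followed by Gpx1 (269), Gclm (52.3), Gclc (31.6), Prdx6 (23.5), Cat (8.87), Gsr (6.29), Nqo1 (2.88) and Txnrd1 (2.19), of which Nqo1 and Txnrd1 overlapped. Gclm went from rank 6 to rank 4 and Txnrd1 from rank 8 to rank 10.

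The summed FPKM of the 10 was 661, 659 and 680 in Ctrl 1, 2 and 3, 1024 in cKO 1 and 1058 in cKO 2. In CPM the sums were 1388 and 1218 against 1050, 1078 and 959. The FPKM were not scaled by TMM. On the log2 FPKM scale the changes of all tested genes shifted by a median of 0.19 (1 added) or 0.20 (0.1 added). Within the summed FPKM, Cat had 0.698 and 1% in cKO and 2.33 to 2.58% in Ctrl, and Prdx6 had 2.31 and 2.2% against 3.57 to 4.32%. Gpx4 held 31.5 and 31.1% in cKO and 24.9 to 27.1% in Ctrl, whereas the share of Gss (31.6 and 29.5% against 24.9 to 31%) overlapped.

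**Figure D4:**
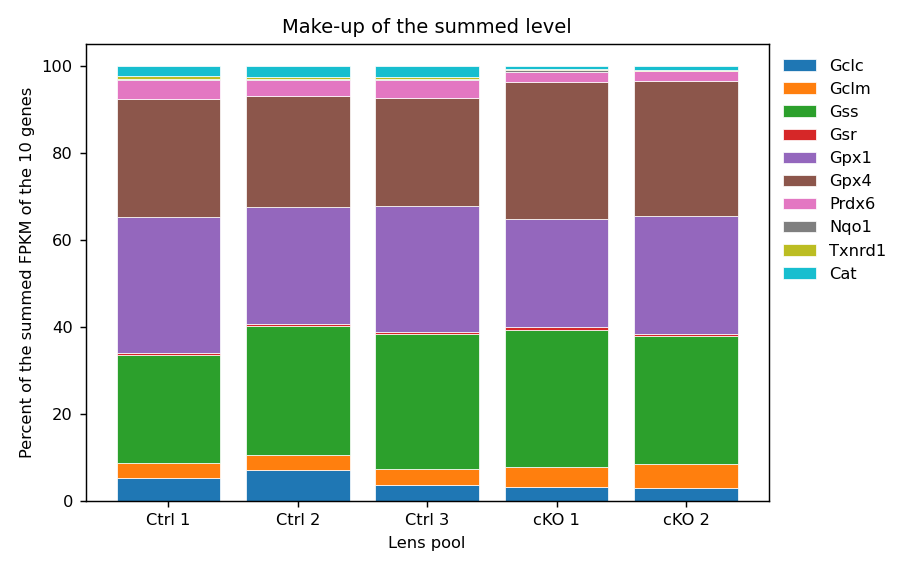
Percent of the summed FPKM of the 10 genes taken by each gene (colours) in each of the 5 lens pools (bars stack to 100). Gpx1, Gpx4 and Gss take most of every pool, and the shares of Cat and Prdx6 are smaller in both cKO pools.

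Genes that feed, spend or control the same system were taken from 8 lists, of which 67 of 78 genes were tested, with 10 called higher and 7 lower and a median log2 fold change of 0.29. Over all tested genes 5.76% were called higher and 7.73% lower, with a median of −0.06, and the counts of each list below stand beside these shares. Breakdown of glutathione had 1 higher and 3 lower of 6 tested. Chac1, which cleaves glutathione inside cells, had 0, 2 and 4 counts in Ctrl 1, 2 and 3, 1981 in cKO 1 and 444 in cKO 2 (adjusted p = 0.00756 by edgeR). Both cKO pools were far above the controls, and cKO 1 was far above cKO 2. The lower genes act in the γ-glutamyl cycle. Ggct fell by 1.54 on the log2 scale (SE 0.20, adjusted p = 0.012 by edgeR), from 61.9 ± 4.55 to 21.3 ± 5.16 CPM. Ggt1, the surface enzyme that starts the breakdown of exported glutathione, fell by 2.10 (SE 0.30, adjusted p = 0.0145 by edgeR), and Oplah, which returns glutamate, fell by 1.02 (SE 0.19, adjusted p = 0.0266 by edgeR).

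Of 7 tested genes of cysteine and glutamate supply, 1 was called. This gene, the glutamate and cysteine carrier Slc1a1, was at 0 in both cKO pools and had 20, 14 and 7 counts in Ctrl 1, 2 and 3 (adjusted p = 0.0472 by edgeR). The mean of the controls was 5.33-fold the level of 3 counts in each cKO library. Ctrl 3 alone (0.269 CPM) was nearer to that level (0.123 CPM in cKO 1 and 0.112 CPM in cKO 2). Of 10 tested genes of NADPH supply, 1 was lower. This was the transketolase gene Tkt of the pentose phosphate route, which fell by 1.06 (SE 0.15, adjusted p = 0.0148 by edgeR), from 159 ± 14.8 to 76.3 ± 6.88 CPM.

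Other peroxidases and superoxide dismutases had 1 higher and 1 lower of 10 tested. Gpx3, a secreted glutathione peroxidase, rose by 1.97 (SE 0.32, adjusted p = 0.0195 by edgeR), from 1.79 ± 0.237 to 7.04 ± 2 CPM, and Gpx8, an enzyme of the endoplasmic reticulum, fell by 2.16 (SE 0.31, adjusted p = 0.0148 by edgeR), from 22.3 ± 5.9 to 4.99 ± 1.26 CPM. The thioredoxin and glutaredoxin list had 2 higher and 1 lower of 9 tested. Its mitochondrial reductase Txnrd2 rose by 1.31 (SE 0.26, adjusted p = 0.0288 by edgeR), from 5.88 ± 0.773 to 14.6 ± 4.42 CPM. Glrx5, a mitochondrial glutaredoxin for iron-sulfur clusters, rose by 0.75 (SE 0.19, adjusted p = 0.048 by edgeR), and Txnrd3 had 5 and 0 counts in cKO against 68 to 100 in Ctrl (adjusted p = 0.0276 by edgeR).

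Of NRF2 and its regulators, 1 of 10 tested was higher. This was Sqstm1, the autophagy receptor p62 that can bind KEAP1, at 1544 and 300 CPM in cKO 1 and 2 and 135 to 178 CPM in Ctrl (log2 fold change 2.50, SE 0.61, adjusted p = 0.0454 by edgeR). Its deposited counts were not whole numbers in any of the 5 pools. Chosen after its values were seen, Nfe2l2 was measured at 7.19 and 11.1 CPM in cKO and 8.64 to 11.4 CPM in Ctrl, overlapping (adjusted p = 0.715 by edgeR). Of 9 tested other NRF2 targets, 3 were called, each higher, while the median of the list was −0.55. The membrane glutathione transferase Mgst1 rose by 1.94 (SE 0.19, adjusted p = 0.0064 by edgeR), Ephx1 by 1.11 (SE 0.18, adjusted p = 0.0197 by edgeR) and Blvrb by 2.05 (SE 0.50, adjusted p = 0.0469 by edgeR). Hmox1, one of these 9 and named after its values were seen, had 1362 to 1574 CPM in Ctrl, 462 CPM in cKO 1 and 104 CPM in cKO 2. Its log2 fold change of −2.35 (SE 0.61) did not pass (adjusted p = 0.0526 by edgeR). Keap1, Prdx1 and Idh2, each already counted in a list above, were looked up in the same way and did not pass either. Keap1 had 7.96 and 10.1 CPM in cKO 1 and 2 and 12.9 to 16.7 CPM in Ctrl (adjusted p = 0.0696 by edgeR). Prdx1 had 767 and 489 CPM against 368 to 377 CPM (adjusted p = 0.0613 by edgeR). Idh2 had 324 and 254 CPM against 180 to 201 CPM (adjusted p = 0.0565 by edgeR).

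Of 8 tested genes of the selenocysteine list, 2 were called, each higher. These were the selenium carrier Selenop, at 49.8 and 16.1 CPM in cKO 1 and 2 and 2.2 to 5.91 CPM in Ctrl (adjusted p = 0.0263 by edgeR), and its receptor gene Lrp8, which rose by 1.31 (SE 0.31, adjusted p = 0.0446 by edgeR). Chac1, Sqstm1 and Selenop were each higher in cKO 1 than in cKO 2, as was the macrophage marker sum given above. The sums of erythrocyte (65.6 and 2.2 CPM), endothelium (21.4 and 11.9 CPM) and fibroblast markers (21.1 and 6.15 CPM) were also higher in cKO 1. So were those of retinal neuron (6.04 and 1.42 CPM), pigment epithelium (2.65 and 0.298 CPM) and lens fibre markers (209815 and 156317 CPM). Against Ctrl, cKO 1 was below every pool for fibroblast (21.5 to 23.5 CPM) and pigment epithelium markers (3.29 to 5.07 CPM). It was within the controls for retinal neuron markers (2.11 to 33.2 CPM). It was above every control for erythrocyte (5.42 to 50 CPM), endothelium (6.3 to 10.3 CPM) and lens fibre markers (163000 to 182216 CPM). The lens epithelium sum apart from Cryaa was higher in cKO 2. Without cKO 1 the log2 fold change of Chac1 went from 9.03 to 7.46, that of Sqstm1 from 2.50 to 0.87 and that of Selenop from 3.0 to 1.95. Without cKO 2 these were 9.76, 3.25 and 3.59. Each of these fits left 1 cKO pool, with the spread taken from the Ctrl pools. Of the other called companion genes, Gpx3, Txnrd2, Mgst1, Blvrb, Ggct, Oplah, Gpx8 and Txnrd3 were also higher in cKO 1. Lrp8, Glrx5, Ephx1, Tkt and Ggt1 were higher in cKO 2, without which Glrx5 changed by 0.48. Of these companion genes, edgeR called 1 (Mgst1, higher) without Ctrl 1 and 0 without Ctrl 2 or Ctrl 3. At an unadjusted p under 0.05 those fits had 23, 17 and 21 higher and 9, 9 and 11 lower. Over all genes they had 1347, 1112 and 1324 higher and 1263, 1333 and 1313 lower at that level. With no count filter Slc1a1, Glrx5, Blvrb and Lrp8 lost their calls (adjusted p = 0.0561, 0.053, 0.0557 and 0.0554 by edgeR), and without the crystallin genes Glrx5 did. With log2 FPKM and limma, Slc1a1, Oplah and Lrp8 did not pass, and with 1 added the changes of Ggct, Ggt1 and Blvrb were −0.81, −1.19 and 1.36. With 0.1 added the changes of these 3 were −0.85, −1.56 and 2.16.

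**Figure D5:**
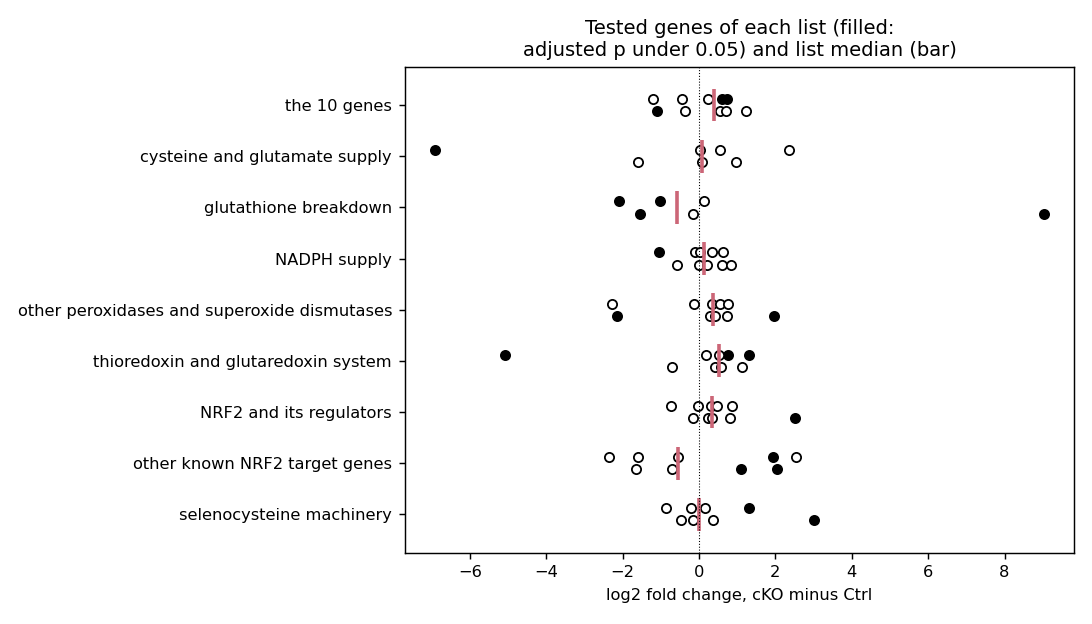
Log2 fold change, cKO minus Ctrl, of every tested gene in the 8 companion lists and of the 10 genes themselves (points; filled passed at an adjusted p under 0.05), with list medians (bars). Changes in both directions occur in most lists; Slc1a1, at the far left, had 0 counts in both cKO pools, so its plotted value is not a measured fold.

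The deposited pathway column names glutathione metabolism for 71 genes, 6 of which are among the 10. Of 44 tested, 7 were higher and 8 lower, beside 5.76% and 7.73% of all tested genes, with 22 positive and 22 negative changes and a median of −0.02 (−0.06 over all tested genes). Without the 10, 6 of 38 tested were higher and 8 lower. The glutathione transferases Gstp1 and Gstp2 rose, Gstp1 from 355 ± 24.2 to 1520 ± 265 CPM (adjusted p = 0.00373 by edgeR), though these are near-identical copies between which the counting could split reads. Gstm1 fell from 460 ± 58.7 to 122 ± 43.3 CPM (adjusted p = 0.0137 by edgeR), and the spermine synthase gene Sms rose by 0.62 (SE 0.15, adjusted p = 0.0425 by edgeR), a call lost with no count filter and without the crystallin genes. Without Ctrl 1, 2 or 3, edgeR called 3, 1 and 2 of the 44 higher and 0 lower (11, 11 and 12 higher and 9, 9 and 10 lower at an unadjusted p under 0.05). The unadjusted counts over all genes were 1347, 1112 and 1324 higher and 1263, 1333 and 1313 lower.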

How the data were processed

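Per the file headers, the authors deposited an estimated count, unscaled, and an FPKM for each gene and library. RSEM, Trimmomatic 0.18.0 and build GRCm39 appear in the submitters' processing notes, without roles; aligner, annotation and strandedness are not stated there. Deposited FPKM values are scaled by the authors to length and library size. Estimated counts were rounded, filtered with filterByExpr (minimum count 10, minimum total 15), scaled by TMM and compared with edgeR 4.0.16 (R 4.3.3), using the quasi-likelihood F test over all 5 libraries without covariates and Benjamini-Hochberg adjustment over 11724 genes. SE came from the F statistic. All values of the 10 genes were whole numbers. Where symbols were shared by several identifiers (20 symbols), the most abundant kept the symbol. A count of 0 allows up to 3 counts, 0.112 to 0.146 CPM by library, for counting error only. The calculation was tested on counts simulated with less spread between replicates than these libraries had (common dispersion 0.128). That test cannot show how reliable the calls are for these pools. DESeq2 1.42.0 and limma 3.58.1 served as alternatives. No batch is labelled. The members and lists were chosen with earlier results of these data known. Named were Yap1, the 10 genes, and of each list the called genes (at most 6 by mean CPM, or the 2 most abundant where none passed). Promoters came from RefSeq, matched by symbol.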

Additional observations from a re-analysis of the deposited data

How the results depend on the processing

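Alternatives fixed for this comparison were DESeq2, its size factors in edgeR, total-count scaling, leaving out the crystallin genes, no count filter, log2 FPKM with 1 or 0.1 added, leaving out each library, and a replicate block. Of the 10 genes, 2 were called higher and 1 lower. The higher count was 4 with DESeq2 and with total-count scaling, 1 without the crystallin genes, 1 with no count filter and 5 with either FPKM setting; leaving out 1 library gave 0 to 5 higher and 0 to 3 lower. Without Ctrl 1, 2 or 3 both counts were 0 by edgeR, with 4 higher in each and 1, 1 and 2 lower at an unadjusted p under 0.05. Over all genes these 3 fits gave 26, 6 and 30 higher and 39, 15 and 52 lower. At an unadjusted p under 0.05 they gave 1347, 1112 and 1324 higher and 1263, 1333 and 1313 lower over all genes.

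Glutathione metabolism genes (7 higher, 8 lower) went to 11 higher with DESeq2, 12 with total-count scaling and 13 with either FPKM setting, and to 1 to 13 higher and 0 to 15 lower with 1 library left out. Companion genes (10 higher, 7 lower) went to 21 and 11 with DESeq2, and to 19, 23 and 22 higher with total-count scaling, FPKM + 1 and FPKM + 0.1; leaving out 1 library gave 0 to 23 higher and 0 to 13 lower. All tested genes (675 higher, 906 lower) went to 1185 and 1542 with DESeq2, 1234 higher with total-count scaling, 1380 and 1402 higher with FPKM + 1 and FPKM + 0.1, and 6 to 2197 higher and 15 to 2964 lower with 1 library left out. Where 1 cKO pool was left, its spread was taken from the Ctrl pools. The cause of these shifts was not tested.

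The log2 summed FPKM of the 10 differed by 0.64, and by 0.34 in CPM. Over all tested genes the median shift of the log2 fold change was 0.19 with FPKM + 1 and 0.20 with FPKM + 0.1. With the replicate number as a block (1 residual degree of freedom), 0 of the 10 were called higher and 0 lower by edgeR (2 and 2 at an unadjusted p under 0.05), glutathione metabolism had 4 and 2, companion genes 3 and 1, and all genes 68 and 107. At an unadjusted p under 0.05 this fit had 828 higher and 1292 lower over all genes. Same-numbered pools had correlated deviations of 0.112 (number 1) and −0.0842 (number 2), so the numbers were not used to pair the pools. With 2 cKO pools the deviations mirror each other, and whether pools share anything else cannot be told from these values.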
